A study of Mus musculus with 8 samples.

Results

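The Ly6 family surface proteins examined here were 6 genes of mouse regulatory T (Treg) cells: Ly6a, Ly6c1, Ly6c2, Ly6d, Ly6e and Ly6k. They were taken by symbol from a table of 23997 genes, and all 6 were found. They were chosen by their FPKM in Bcl11b-deficient against Bcl11b-sufficient cells, as family members with opposite directions, so their differences in that contrast are given as a description, with no test. Bcl11b is a transcription factor with zinc fingers that T cells need for their development. Deficient cells came from C57BL/6 mice of genotype Bcl11b f/f Foxp3-YFP-Cre/+, with 2 floxed copies, and sufficient cells from C57BL/6 mice of genotype Bcl11b f/+ Foxp3-YFP-Cre/+, with 1 floxed copy. Both groups therefore carried the Cre, driven from the Foxp3 locus, and the control also carried a floxed allele. Foxp3 is X-linked, and animals heterozygous for this allele can keep Treg cells without Cre, which the sort on CD4 and YFP was meant to leave out. Cells came from draining lymph nodes and spleen, and the labels state a purity above 97%. Age, any treatment and the number of animals behind each library were not given in the sources used here, so the p-values below measure the spread between libraries, which may be technical.

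Each group had 4 samples, sequenced to an estimated 2900000 to 12800000 fragments. Among the deficient samples, replicates 1 and 3 were nearly the same, as were replicates 2 and 4, and among the sufficient samples so were replicates 1 and 3. These pairs differed by only 1.09 to 1.30 times the sampling noise, against 1.74 to 2.44 times for the 9 other pairs within a group. Each of those 3 pairs was averaged and counted as 1 library, which left 2 deficient and 3 sufficient libraries. Bcl11b itself, measured over the whole gene, was at 24.2, 19.3, 24.6 and 18.7 FPKM (fragments scaled to transcript length and library depth) in the deficient replicates and at 42.4, 46.5, 42.4 and 39.1 FPKM in the sufficient ones. A value for the whole gene does not separate the deleted part. T cell markers summed to 2420 and 2623 FPKM in the deficient libraries and to 2660 to 3144 FPKM in the sufficient ones, with 0 of 7 tested called by limma and 3 at an unadjusted p under 0.05, all lower. The share of all genes at this unadjusted level was not counted, so nothing is read from such counts here or below. Of 5 Treg markers tested, limma called 1 lower and 0 higher, and 4 had an unadjusted p under 0.05, all lower. Their sums were 619 and 621 FPKM against 981 to 1203 FPKM, with a median difference of -0.55 on the log2(FPKM + 1) scale. Foxp3 was at 153 FPKM in both deficient libraries and at 165 to 198 FPKM in sufficient cells. The gene that fell was Ctla4, which encodes an inhibitory receptor, at 119 and 103 FPKM in deficient and 274 to 477 FPKM in sufficient cells (difference -1.72, limma adjusted p = 0.0174). That call was lost with no filter on low values (0.0745), when sufficient replicate 2 (0.0557) or either deficient library (0.118 and 0.130) was left out. The part of this difference in the members' levels was not tested.

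Ly6 proteins are small, cysteine-rich proteins with a shared fold, mostly held on the outer face of the cell membrane by a glycosylphosphatidylinositol (GPI) anchor. On lymphocytes several of them follow activation state or interferon exposure: Ly6a, also called Sca-1, is carried by activated and memory T cells and by blood stem cells, and the Ly6C proteins mark memory T cells and inflammatory monocytes. In Treg cells, Ly6C is used to tell subsets of different activation state apart.

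All 6 genes lay on chromosome 15 within 349.9 kb. In the GENCODE M21 annotation of GRCm38 the order was Ly6d (chr15:74762056-74763620, minus strand), Ly6k (chr15:74796874-74799986, minus), Ly6e (chr15:74955051-74959905, plus), Ly6a (chr15:74994877-74998031, minus), Ly6c1 (chr15:75044018-75048830, minus) and Ly6c2 (chr15:75108158-75111970, minus). The neighbours Ly6c1 and Ly6c2 were 59.3 kb apart. Every member had 3 coding exons, with a coding sequence of 384 to 465 bases.

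The coding sequences of Ly6c1 and Ly6c2 are shown because these genes differed most from each other in the data while being nearly the same in sequence. Bases 1 to 300 of 396 are printed 5′ to 3′ from GENCODE M21 transcripts, and capitals mark the 7 positions in that stretch at which they differ.
Ly6c1: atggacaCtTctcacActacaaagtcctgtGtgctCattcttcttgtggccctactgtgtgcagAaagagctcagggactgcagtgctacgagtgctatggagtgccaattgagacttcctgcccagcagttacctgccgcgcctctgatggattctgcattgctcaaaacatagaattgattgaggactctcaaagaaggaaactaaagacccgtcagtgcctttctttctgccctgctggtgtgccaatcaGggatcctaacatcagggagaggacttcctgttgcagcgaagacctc
Ly6c2: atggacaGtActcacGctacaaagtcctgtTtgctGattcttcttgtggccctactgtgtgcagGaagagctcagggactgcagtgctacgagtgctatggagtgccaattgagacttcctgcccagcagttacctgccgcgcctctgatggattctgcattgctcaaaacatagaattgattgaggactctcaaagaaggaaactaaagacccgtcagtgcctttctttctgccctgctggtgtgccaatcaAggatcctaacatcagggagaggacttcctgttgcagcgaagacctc
Of the 7 differences, 6 fell in the first 70 bases, and 2 more lay in the 96 bases not printed. Identity over the whole coding sequence was 97.7%, with no gap and a longest shared run of 188 bases. Of the 50-base windows along the Ly6c1 transcript, 252 of 795 (31.7%) also occurred in an annotated Ly6c2 transcript, and 252 of 773 (32.6%) the other way round. How the authors' software divided fragments that match both genes was not given in the sources used here, so the separate levels of this pair are less certain than those of the other members. Ly6a had 83.8% identity with Ly6c1 and shared 11 of its 770 windows with it. It had 83.6% identity with Ly6c2. Every other pair of members had 58.8% to 66.0% identity and shared no 50-base window.

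The regions upstream of the same pair are shown to set against their opposite directions. They are the 250 bases before the annotated start from RefSeq on GRCm38.p6, both on the minus strand, at chr15:75048838-75049087 for Ly6c1 and chr15:75111972-75112221 for Ly6c2. The RefSeq promoter table matched 2 of the 6 members, these 2. Capitals mark matches to the letters searched on both strands.
Ly6c1: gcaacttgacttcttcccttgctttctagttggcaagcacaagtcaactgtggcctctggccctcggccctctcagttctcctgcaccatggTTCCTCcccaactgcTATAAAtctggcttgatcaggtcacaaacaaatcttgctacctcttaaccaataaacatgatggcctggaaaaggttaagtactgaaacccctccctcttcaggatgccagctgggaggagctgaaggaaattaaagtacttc
Ly6c2: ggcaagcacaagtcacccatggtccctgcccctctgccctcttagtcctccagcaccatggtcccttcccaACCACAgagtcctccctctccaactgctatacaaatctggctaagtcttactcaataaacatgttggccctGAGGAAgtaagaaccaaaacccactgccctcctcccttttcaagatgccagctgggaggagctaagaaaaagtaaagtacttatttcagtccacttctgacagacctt
These windows were 75.9% identical over 216 aligned bases, with 68 gap bases, and so less alike than the coding sequences. The searched letters were the core of the interferon-stimulated response element (ISRE; GAAA, any 2 bases and GAAA), TTCNNNGAA (the GAS element bound by STAT proteins), TGTGGT (Runx), TATAAA (the box bound by the basal machinery) and GAGGAA (PU-box); none of the matches overlapped. The Ly6c1 window held TATAAA, found in 12.4% of 32851 RefSeq promoter windows of this length, at 143 bases before the start. Only the Ly6c2 window of the pair held TGTGGT, found in 14.0% of them, on the reverse strand at 179 bases before the start. Both held GAGGAA, found in 23.3%, at 158 bases (Ly6c1, reverse strand) and 108 bases (Ly6c2). The ISRE core and TTCNNNGAA, found in 2.98% and 7.02% of all windows, were not among the letters of either.

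Ly6c2 and Ly6d were higher in the deficient cells, Ly6c1 and Ly6k were lower, and the groups overlapped for Ly6a and Ly6e. All 6 members had a mean of at least 1 FPKM and so entered the fit over 10614 genes with limma. That fit placed 2 members above and 1 below its threshold, against 1.93% of all genes higher and 0.697% lower (2.63% in either direction). The libraries of the 2 groups did not overlap for 4 members, 2 in each direction, against 36.7% of all genes tested (18.9% higher and 17.9% lower). Since the rule used this contrast, nothing is read from either count. The median difference of the 6 was -0.12 on the log2(FPKM + 1) scale, beside -0.01 for all genes tested.

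Ly6c2 encodes a Ly6C protein of monocytes and memory T cells. Its level in FPKM was 48.3, 59.9, 55.1 and 67.0 in the deficient samples, in replicate order, and 8.50, 20.6, 9.28 and 11.8 in the sufficient ones. Every deficient sample was above every sufficient one, and sufficient replicate 2 was the highest of its group. The library means were 57.6 ± 8.32 FPKM (SD, n = 2) in deficient and 13.8 ± 6.13 FPKM (SD, n = 3) in sufficient cells, a ratio of 4.18 and a difference of 2.06 (SE 0.30) on the log2(FPKM + 1) scale. Among the 23997 genes of the table, ordered by level, Ly6c2 stood at places 1234 and 1581 in the deficient libraries and between 4126 and 6770 in the sufficient ones.

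Ly6c1, which encodes the closely related Ly6C protein, went the other way. Its level was 62.5, 61.8, 59.7 and 67.0 FPKM in the deficient replicates and 166, 105, 165 and 124 FPKM in the sufficient ones. The deficient samples lay close together and below all sufficient samples, which spread more widely. Library means were 62.7 ± 2.31 FPKM (SD, n = 2) in deficient and 131 ± 30.8 FPKM (SD, n = 3) in sufficient cells, a ratio of 0.477 and a difference of -1.03 (SE 0.18).

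**Figure D1:**
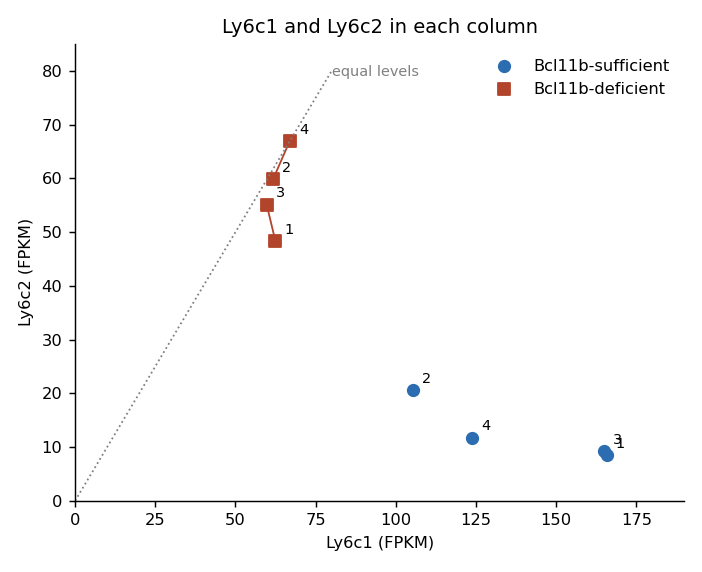
Level of Ly6c2 (vertical axis, FPKM) against Ly6c1 (horizontal axis, FPKM) in each of the 8 samples, numbered by replicate; lines join samples averaged as 1 library and the dotted line marks equal levels. The deficient samples sit near the line of equal levels, with Ly6c2 between 48.3 and 67.0 FPKM, and the sufficient samples sit far below it, with Ly6c2 between 8.50 and 20.6 FPKM.

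With opposite directions, the balance of the pair differed more than its sum, as the plot of Ly6c2 against Ly6c1 shows. Ly6c2 made up 45.8% and 49.6% of the summed Ly6c1 and Ly6c2 FPKM in the deficient libraries and 5.10%, 16.4% and 8.68% in the sufficient ones. The means were 47.7% ± 2.70 (SD, n = 2) and 10.1% ± 5.77 (SD, n = 3). In the deficient libraries the pair summed to 113 and 128 FPKM, within reach of the 126, 135 and 174 FPKM of the sufficient ones, so the sums overlapped. The log2 ratio of Ly6c2 to Ly6c1 within a library, which no scaling of the library moves apart from the pseudocount, was -0.24 and -0.02 in the deficient libraries and -4.07, -3.29 and -2.30 in the sufficient ones. The group means of this ratio were 3.09 apart. A shifted balance follows largely from the choice of members with opposite directions, so it is given as a description.

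Ly6d, a surface protein known from early B lineage cells and from plasmacytoid dendritic cell development, was low in all samples. Its level was 9.56, 8.93, 8.90 and 7.97 FPKM in the deficient replicates and 4.46, 3.10, 4.22 and 3.38 FPKM in the sufficient ones. No sufficient sample reached the lowest deficient one. The library means were 8.84 ± 0.550 FPKM (SD, n = 2) in deficient and 3.61 ± 0.650 FPKM (SD, n = 3) in sufficient cells, a ratio of 2.45 and a difference of 1.10 (SE 0.16). These levels rested on few fragments, at most 22, 23, 79 and 57 in the deficient replicates and 10, 14, 39 and 32 in the sufficient ones if every fragment counted over the full transcript length. That conversion uses the depth estimate and is approximate.

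Ly6k, best known from male germ cells, was of similarly low level and lower in the deficient cells. It was at 7.28, 5.94, 5.43 and 5.41 FPKM in the deficient replicates and at 14.4, 8.36, 10.5 and 11.8 FPKM in the sufficient ones. The groups did not overlap, with sufficient replicate 2 nearest to the deficient samples. Averages over libraries were 6.01 ± 0.481 FPKM (SD, n = 2) in deficient and 10.9 ± 2.2 FPKM (SD, n = 3) in sufficient cells, a ratio of 0.554 and a difference of -0.74 (SE 0.18). At most 17 to 51 fragments lay behind the deficient values and 33 to 120 behind the sufficient ones, on the same approximation.

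Ly6a, the Sca-1 antigen, was at 90.0, 124, 89.0 and 124 FPKM in the deficient replicates and at 95.8, 89.5, 104 and 155 FPKM in the sufficient ones. The groups overlapped, and the deficient libraries stood apart from each other, at 89.5 and 124 FPKM. Averages over libraries were 107 ± 24.5 FPKM (SD, n = 2) in deficient and 115 ± 35.2 FPKM (SD, n = 3) in sufficient cells, and the difference of -0.08 (SE 0.25) was within its error.

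Ly6e, an interferon-induced family member studied for its part in virus entry, was by far the most abundant. Its level was 804, 738, 792 and 770 FPKM in the deficient replicates and 901, 724, 902 and 983 FPKM in the sufficient ones, with sufficient replicate 2 below all deficient samples. By library the means were 776 ± 31.2 FPKM (SD, n = 2) in deficient and 869 ± 132 FPKM (SD, n = 3) in sufficient cells, and the difference was -0.15 (SE 0.16). It stood at places 85 to 97 of the table in the 5 libraries. Ly6e alone made up 73.9% and 78.6% of the summed FPKM of the 6 members in the deficient libraries and 75.6% to 76.3% in the sufficient ones.

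**Figure D2:**
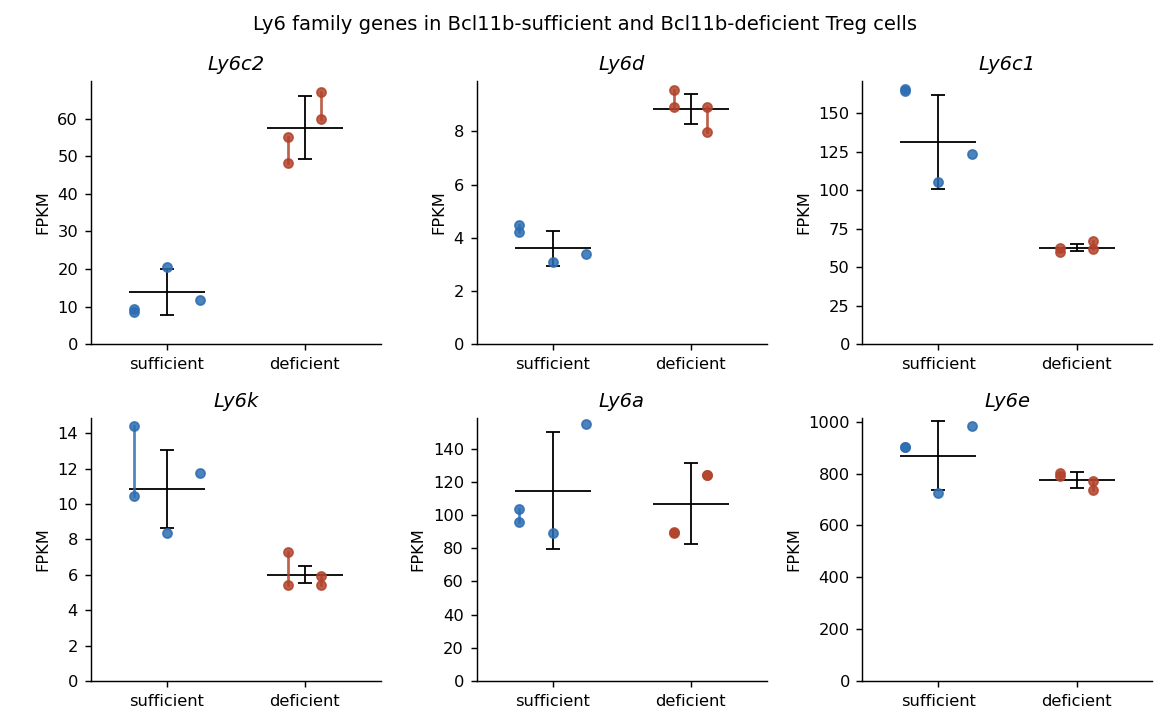
Level of each of the 6 genes (vertical axes, FPKM, from 0) in Bcl11b-sufficient and Bcl11b-deficient samples; points are samples, joined where averaged as 1 library, and horizontal lines with bars are the mean and SD over 2 deficient and 3 sufficient libraries. Ly6c2 (48.3 to 67.0 against 8.50 to 20.6 FPKM) and Ly6d lay higher in all deficient samples, Ly6c1 and Ly6k lower, and Ly6a and Ly6e overlapped.

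FPKM is given per transcript length, so the levels of different members can be ordered. In all 3 sufficient libraries Ly6e was the highest and Ly6d the lowest. Ly6c1 was above Ly6a in sufficient replicates 1 and 3 and in sufficient replicate 2, and below it in sufficient replicate 4, so these neighbours did not differ beyond their spread there. Ly6c2 and Ly6k, at 13.8 and 10.9 FPKM on average, did not either: Ly6c2 was the lower of the pair in the averaged library of sufficient replicates 1 and 3, at 8.89 against 12.5 FPKM, and about level in sufficient replicate 4, at 11.8 FPKM each. In both deficient libraries the order was Ly6e, Ly6a, Ly6c1, Ly6c2, Ly6d and Ly6k. Ly6c1 and Ly6c2 were neighbours there, at 61.1 and 51.7 FPKM in 1 library and 64.4 and 63.5 FPKM in the other. Ly6d lay above Ly6k in both deficient libraries and below it in all 3 sufficient ones.

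Ratios to Ly6e within each library gave the same directions without any scaling between libraries. This follows largely from the choice of the members by direction and from the small difference of Ly6e. Relative to Ly6e, on the log2 scale, Ly6c2 was 2.21 higher in the deficient libraries and Ly6d 1.26 higher, while Ly6c1 differed by -0.88 and Ly6k by -0.59. None of these 4 ratios overlapped between the groups. The share of such ratios over all genes was not counted, so nothing is read from this. The ratio of Ly6a to Ly6e differed by 0.07 and overlapped. Because Ly6e is a measured gene too, these ratios show unequal change between genes and not that Ly6e itself was unchanged.

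Scaling between libraries set the sign of the smallest differences. Equal total FPKM moved the median of all tested genes from -0.01 to 0.18. Ly6e then differed by 0.06 in place of -0.15 and Ly6a by 0.13 in place of -0.08. Quantile normalization gave 0.11 for Ly6e and 0.01 for Ly6a. No direction was therefore assigned to Ly6a or Ly6e. Ly6c2, Ly6d, Ly6c1 and Ly6k kept their signs under all the settings run, including without any 1 library. For these genes neither samples nor libraries overlapped between the groups, so leaving any out could not reverse the sign. Nothing is therefore read from the settings with a library or replicate left out.

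**Figure D3:**
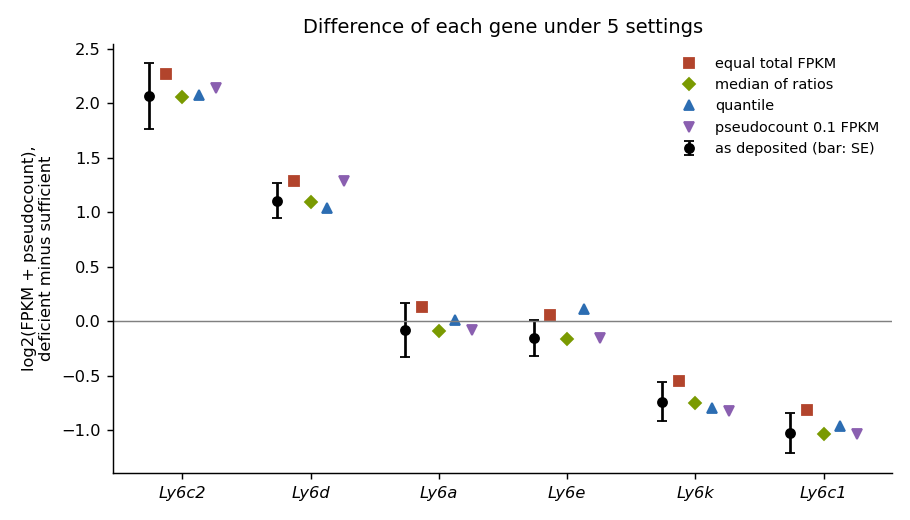
Difference between deficient and sufficient libraries (vertical axis, log2(FPKM + pseudocount)) for each gene, as deposited with its standard error, under 3 scalings and with a smaller pseudocount. Ly6c2 and Ly6d stay above 0 and Ly6k and Ly6c1 below it, while Ly6a and Ly6e change sign under equal total FPKM and quantile normalization.

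The members did not vary as a block, which follows largely from their choice as genes with opposite directions. Profiles over the 5 libraries were compared by the root mean square (RMS) difference of mean-centred log2(FPKM + 1) values, a description that includes the group difference itself. Among the 15 pairs, Ly6c1 and Ly6k were the most alike, at 0.19, and Ly6c1 and Ly6c2 the least, at 1.62. For Ly6c2 the closest of all tested genes were Ly86, Plcg2 and Plekhg5, at 0.19, 0.21 and 0.23, and no gene came within 0.1. Ly86 encodes MD-1, a partner of the RP105 receptor of B and myeloid cells, and was at 7.40 and 7.03 FPKM in the deficient libraries and 0.576 to 1.59 FPKM in the sufficient ones. Plcg2 is a phospholipase C of B and myeloid cell signalling. For Ly6c1 the closest were Ntn4, Gpr83 and Xxylt1, at 0.095, 0.13 and 0.13; Gpr83, a G protein-coupled receptor known from Treg cells, was at 18.4 and 18.3 FPKM in the deficient and 32.8 to 49.0 FPKM in the sufficient libraries.

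Ly6d was closest to Klhdc2, Pcyox1 and Rtn4rl1, at 0.051, 0.093 and 0.11. Ly6k was closest to Rgs1, a regulator of G protein signalling, and to Eno3 and Snhg1, at 0.081, 0.093 and 0.11. Ly6a was closest to Mrpl33, Eci1 and Sar1b, at 0.065, 0.070 and 0.077. For Ly6e the closest were Cuedc2, Trappc5 and Rmnd1, at 0.025, 0.027 and 0.030. Its flat profile was a common one, with 457 genes within 0.1, against 11 for Ly6a, 2 each for Ly6d and Ly6k and 1 for Ly6c1.

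The rest of the family was mostly undetected or low in these cells. Of 34 other Ly6 and urokinase receptor (uPAR) family genes in the table, 19 were listed at 0 in all libraries, 10 were above 0 with a mean under 1 FPKM, and 5 were tested. With limma, 1 of these 5 rose in deficient cells and 0 fell, and the same 1 was the only gene of the 5 with an unadjusted p under 0.05. This was Lypd6b (chr2:49787688-49948849, plus strand), whose product modulates nicotinic acetylcholine receptors. Its level was 4.12, 3.88, 3.90 and 3.47 FPKM in the deficient replicates and 0.490, 1.26, 0.693 and 1.34 FPKM in the sufficient ones, with no overlap. The difference was 1.25 (SE 0.22) on the log2(FPKM + 1) scale, with a limma adjusted p of 0.0395. The call was lost with a pseudocount of 0.1 (limma adjusted p = 0.0747) and with no filter on low values (0.102). It was also lost without sufficient replicate 2 (0.0742), 3 (0.0540) or 4 (0.0690), without the averaged sufficient replicates 1 and 3 (0.0548), and without either deficient library (0.254 and 0.193).

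The other 4 tested family genes did not pass. Plaur, the urokinase receptor, averaged 1.53 FPKM in deficient cells and 2.32 FPKM in sufficient cells (limma adjusted p = 0.491). Lynx1, a modulator of nicotinic receptors in the brain, averaged 1.49 and 0.971 FPKM (0.516). The means were 1.72 and 1.76 FPKM for Ly6g5b (0.961) and 1.26 and 1.45 FPKM for 2010109I03Rik, also known as Ly6m (0.860).

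Genes sharing the chromosome region with the members were mostly at low level as well. Of 22 further genes between the outermost members or within 500 kb of them, 18 had a mean under 1 FPKM, 11 of these listed at 0 throughout, and 4 were tested. With limma 0 of the 4 passed, while 2 had an unadjusted p under 0.05. These were Arc (10.5 against 6.63 FPKM, difference 0.64, limma adjusted p = 0.269) and Them6 (10.4 against 14.4 FPKM, -0.44, limma adjusted p = 0.0835), both beyond the cluster and named here after their values were seen. Between the outermost members only 2010109I03Rik was tested. Ly6i, between Ly6e and Ly6a, had a mean of 0.334 FPKM. From Ly6d to Ly6c2 along the chromosome, the members' differences were 1.10, -0.74, -0.15, -0.08, -1.03 and 2.06.

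**Figure D4:**
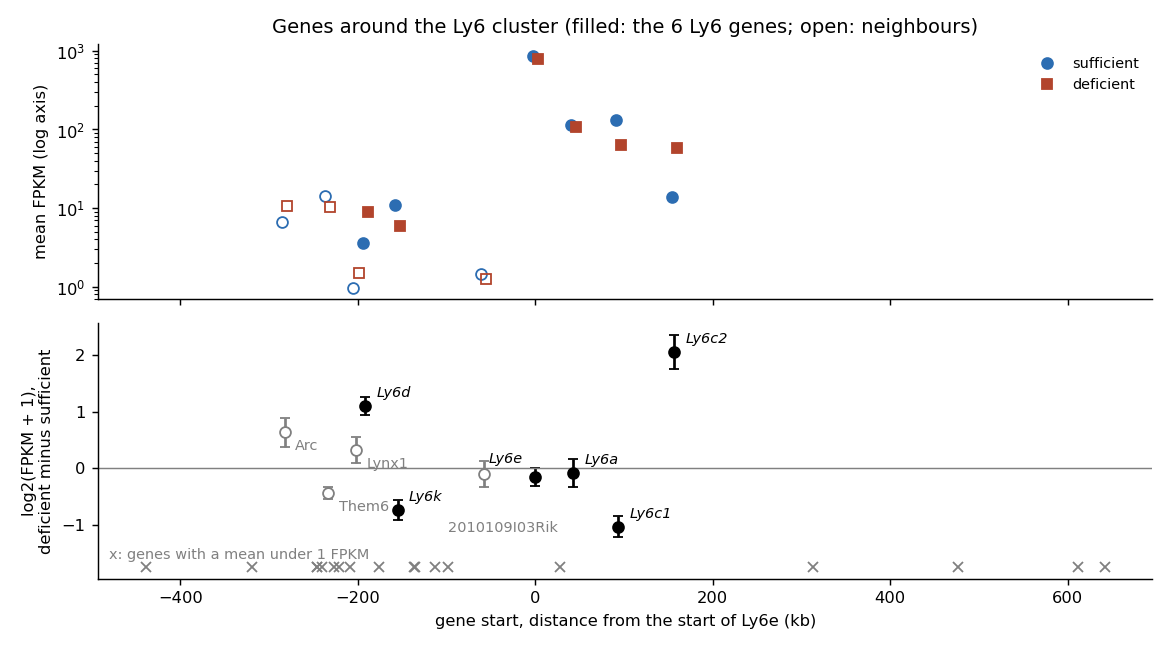
Mean level (upper axis, FPKM, log scale) and difference, deficient minus sufficient, in log2(FPKM + 1) with its SE (lower axis) against the distance of each gene's start from the start of Ly6e (kb); filled symbols are the 6 members, open symbols the 4 tested neighbours, and crosses genes with a mean under 1 FPKM. Ly6c1 (-1.03) and Ly6c2 (2.06) lie next to each other at the right end with opposite differences.

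Several Ly6 genes are induced by interferon, so interferon receptor and signalling genes and interferon-stimulated genes were read from the same fit. Of 17 interferon pathway genes tested, 0 rose and 1 fell with limma, and the list's median difference was -0.05, beside -0.01 over all genes. The gene that fell was Ifngr1, a subunit of the interferon-gamma receptor, at 54.5 and 59.7 FPKM in the deficient libraries and 91.1 to 115 FPKM in the sufficient ones (difference -0.83, limma adjusted p = 0.0265). This call was lost at equal total FPKM (limma adjusted p = 0.0881), with no filter on low values (0.0720) and without sufficient replicate 2 (0.0664). It was also lost without either deficient library (0.196 and 0.130) or the averaged sufficient replicates 1 and 3 (0.0548). At equal total FPKM 1 gene of the list passed as higher and 0 as lower, and after quantile normalization 1 passed in each direction. The gene that passed as higher in both was Irf7, an interferon regulatory factor, named after its values were seen.

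Of 30 interferon-stimulated genes tested, 0 rose and 0 fell with limma, although 16 had an unadjusted p under 0.05, all higher in deficient cells. No share over all genes stands beside this count. The median difference of this list was 0.35, and its calls depended on scaling: 7 of the 30 passed as higher at equal total FPKM, where the median was 0.55, and 2 after quantile normalization. The part of these genes in the members' levels was not tested.

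Markers of other cell types were read beside the members, because Ly6c2 is strong in monocytes and Ly6d in B lineage cells. In bulk samples, fewer cells of a type and less RNA per cell cannot be told apart. Nor can RNA from other cells be told apart from expression of these markers by the Treg cells themselves. Of 14 macrophage and monocyte markers in the table, 13 were tested, 6 rose and 0 fell with limma, and none was at 0 in all libraries. At an unadjusted p under 0.05, 12 of the 13 were higher and 0 lower, with a median difference of 2.64. At equal total FPKM 10 of 14 tested rose, and after quantile normalization 5 of 13. Summed, they reached 613 and 273 FPKM in the deficient libraries and 23.0 to 75.5 FPKM in the sufficient ones. Lyz2, which encodes lysozyme, was at 158 and 62.4 FPKM in the deficient libraries and 3.29 to 15.0 FPKM in the sufficient ones (limma adjusted p = 0.0304). The complement genes C1qa and C1qc, at 96.7 and 38.9 FPKM and at 98.5 and 35.3 FPKM in the deficient libraries against at most 11.2 and 10.7 FPKM, did not pass (0.0991 and 0.0641). Ccr2, a receptor of inflammatory monocytes, was the only tested marker of the list not at an unadjusted p under 0.05. It was at 4.68 and 7.97 FPKM in the deficient and 5.44 to 9.27 FPKM in the sufficient libraries. Being neither called nor among the most abundant of the list, Ccr2 was not picked by the rule for naming genes.

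Of 10 NK cell markers, 7 were tested, 4 rose and 0 fell with limma. Their sum was 97.1 and 101 FPKM in the deficient libraries and 5.84 to 18.8 FPKM in the sufficient ones. Klrd1, which encodes the lectin-like receptor CD94, was at 12.0 and 19.6 FPKM in the deficient and 0.114 to 0.800 FPKM in the sufficient libraries (limma adjusted p = 0.00782), and Gzma, which encodes granzyme A, at 12.6 and 31.5 against 0.225 to 2.54 FPKM (0.0259). Tyrobp, an adaptor that myeloid cells share, was at 64.9 and 38.6 against 1.41 to 10.5 FPKM (0.0423). Of the summed FPKM, it supplied 64.9 of 97.1 and 38.6 of 101 in the deficient libraries. In sufficient replicate 2 it supplied 10.5 of 18.8 FPKM, so the NK sums here and below rest partly on a shared gene. Klrb1c, Eomes and Prf1 were tested and did not pass (limma adjusted p = 0.315, 0.936 and 0.809). They differed by 0.52, 0.04 and -0.13 and are named after their values were seen. The NK receptor Ncr1 stayed at 0.539 FPKM or below in all 5 libraries. Of 7 dendritic cell markers, 2 were tested, 1 rose and 0 fell, and their sum was 7.59 and 9.29 FPKM against 0.580 to 2.99 FPKM. The gene that rose was Batf3 (limma adjusted p = 0.0366). Its call was lost with a pseudocount of 0.1 (0.0631), with no filter (0.102) and after quantile normalization (0.0511), and without deficient replicate 3 (0.106), sufficient replicate 2 (0.0576) or 4 (0.0877). It was also lost without the averaged sufficient replicates 1 and 3 (0.0756) and without either deficient library (0.116 and 0.214).

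Within the groups these sums did not all follow Ly6c2. The deficient library of replicates 2 and 4 had the higher Ly6c2 (63.5 against 51.7 FPKM) and the lower macrophage sum, 273 against 613 FPKM. NK, dendritic, neutrophil, CD8 T and red cell precursor sums followed the order of Ly6c2 within both groups. The CD8 T sums were 10.6 and 11.2 FPKM in the deficient and 11.6 to 15.1 FPKM in the sufficient libraries. With 2 and 3 libraries to order and many lists, such an order can arise by chance, and nothing is read from it. Sufficient replicate 2, with the highest Ly6c2 of its group, also had its highest NK sum, at 18.8 FPKM, and its highest red cell precursor sum, at 62.9 FPKM against 0.502 and 11.2 FPKM. In the deficient libraries the red cell precursor sums were 14.1 and 126 FPKM. The part of other cell types in the level of Ly6c2 was not tested. The calls in these lists also rested on few libraries: over all genes, limma made 279 calls, but 16 when deficient replicates 1 and 3 were left out and 8 when deficient replicates 2 and 4 were.

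Markers of the cell types known for Ly6d were read in the same way. Of 10 B cell markers, 3 were tested, and 0 rose or fell with limma (1 had an unadjusted p under 0.05, Cd79b, at lower level in deficient cells). Their sum was 11.8 and 15.5 FPKM in the deficient libraries and 11.1 to 24.3 FPKM in the sufficient ones. The B cell genes Ms4a1 and Pax5 were at 0.459 FPKM or below in all libraries. Blnk (1.39 and 1.08 against 0.0422 to 0.368 FPKM, not tested for its low mean) and Cd79a (2.32 and 2.42 against 1.14 to 2.19 FPKM, limma adjusted p = 0.408) were higher in both deficient libraries than in all sufficient ones, and are named after their values were seen. The part of B cells in the level of Ly6d was not tested. Of 9 plasmacytoid dendritic cell markers, 8 were tested, 2 rose and 0 fell. These were Siglech, at 6.29 and 2.34 against 0.225 FPKM or less (limma adjusted p = 0.0319), and Klk1, at 4.67 and 1.63 FPKM and listed at 0 in every sufficient library (0.0358). Its most abundant genes, Bst2, Ccr9 and Pacsin1, did not pass (limma adjusted p = 0.995, 0.213 and 0.250). At an unadjusted p under 0.05, 4 of the 8 were higher and 1 lower, and the median difference of the list was 0.50. The whole list summed to 205 and 189 FPKM against 173 to 185 FPKM. Most of that was Bst2, at 121 and 119 FPKM in the deficient and 114 to 131 FPKM in the sufficient libraries. The part of this list in the level of Ly6d was not tested.

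Neutrophil and endothelial or stromal markers had no call with limma. Neutrophil markers, of which 4 of 8 were tested with 0 at an unadjusted p under 0.05, summed to 8.75 and 36.9 FPKM in deficient and to 3.75, 6.44 and 40.8 FPKM in sufficient cells. Sufficient replicate 2, the sample with the highest Ly6c2 of its group, had the 40.8 FPKM, of which S100a9 made up 18.0 and S100a8 13.1 FPKM. Endothelial and stromal cells, another known site of Ly6c1 and Ly6a, gave little signal: Cldn5 was listed at 0 in all libraries and Cdh5, Kdr and Vwf stayed at 0.328 FPKM or below. Only Pecam1, which T cells also express, was tested from that list, at 85.8 and 80.1 FPKM in the deficient and 70.4 to 74.8 FPKM in the sufficient libraries (limma adjusted p = 0.377).

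**Figure D5:**
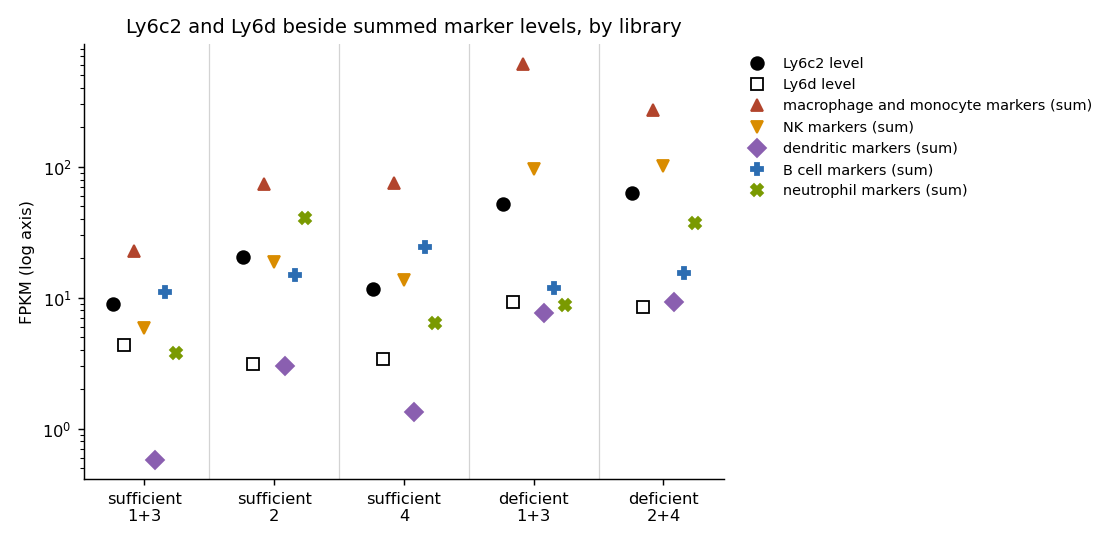
Level of Ly6c2 and Ly6d and summed levels of 5 marker lists (vertical axis, FPKM, log scale) in each of the 5 libraries, named by group and replicate. Macrophage (613 and 273 FPKM), NK (97.1 and 101 FPKM, Tyrobp included) and dendritic sums (7.59 and 9.29 FPKM) are higher in the deficient libraries. B cell and neutrophil sums overlap between the groups. Ly6c2 and Ly6d, chosen by direction, are higher too, and a link to any of these lists was not tested.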

How the data were processed

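RNA sequencing of sorted CD4+YFP+ cells was read from a table the authors deposited in FPKM, a unit taken from the table's name. Per the labels' protocols, libraries came from total RNA with a stranded kit and 15 PCR cycles. Per the submitters' processing notes, reads were handled with STAR 2.5.1, cutadapt 1.12, Trim Galore 0.4.2 and FastQC, and with Cuffdiff 2.2.1 and Cuffnorm 2.2.1, on mm10. Their settings, the annotation and any use of strand were not given in the sources used here. Another 8 value columns matched no sample and were not used.

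Depth was estimated from the smallest steps between FPKM values of genes with a single annotated transcript, and is approximate. Same-group columns that differed by less than 1.5 times the sampling noise were averaged. The 10614 genes whose mean over the 5 libraries reached 1 FPKM were tested on log2(FPKM + 1), using limma 3.58.1 (R 4.3.3) and its mean-variance trend. The test was two-sided, with Benjamini-Hochberg adjustment across these genes and a threshold of 0.05. Unadjusted p-values under 0.05 were common over all genes tested: that of Pign, 0.0489, had a limma adjusted p of 0.278. Fold changes on this scale are understated for low genes. On simulated data of 10574 genes, the fit recovered 63% of changes of 2-fold and 94% of 4-fold ones, and 6 of 10374 unchanged genes were called. Changes were planted only in genes with means well above the 1 FPKM filter, and spreads were shuffled between genes. These rates therefore do not cover low genes such as Ly6d and Ly6k.

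The members, lists and tests were chosen with earlier results of these data known. Genes named were the members, tested family genes and genes between the outermost members, the 3 tested genes with the closest profile to each member, Bcl11b, leading members of each marker list, and up to 4 called genes of other lists by adjusted p. Gm10334 and Itm2b were dropped from the lists because they belong to other kinds of gene. Plasma cell, red cell precursor and CD8 T cell marker lists had no call either, and 1 of 5 Treg markers, Ctla4, fell. Alternatives covered pseudocount, filter, scaling, empirical Bayes, averaging, the replicate number as a block, and leaving out each column or library.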

Additional observations from a re-analysis of the deposited data

How the results depend on the processing

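The number of genes called was 279, of which 73.5% were higher in deficient cells. It was 182 with a pseudocount of 0.1 FPKM and 99 with no filter on low values (91.9% higher). Equal total FPKM gave 371 calls, 91.9% of them higher. Taking the 8 columns as separate libraries gave 1851 calls (54.2% higher), and adding the replicate number as a block gave 1418. Leaving out columns or libraries gave 8 to 297 calls: among the sufficient cells, 80 without replicate 2, 133 without replicate 4 and 167 without the averaged 1 and 3. Among the deficient cells it was 16 without the averaged replicates 1 and 3, and 8 without the averaged 2 and 4. Of the other family genes, 1 was called, but 0 with a pseudocount of 0.1 FPKM or no filter on low values, and 0 to 1 when replicates were left out. Around the cluster, 0 neighbours were called, against 1 with 8 separate columns and 2 with the replicate block. The replicate numbers are not stated to pair samples: same-numbered samples had correlations of deviations over genes of 0.03, 0.06, 0.13 and 0.09. Differently numbered samples had -0.108 to 0.13, most of them below 0. Whether samples of 1 number share more than others was not tested. Ly6d differed by 1.28 with a pseudocount of 0.1 FPKM and by 1.29 at equal total FPKM, in place of 1.10. Ly6e differed by 0.060 at equal total FPKM and 0.11 after quantile normalization, in place of -0.15. Except for those settings and the construction of the alternatives with fewer libraries, the cause was not tested. When replicates were left out, the difference ranged from 1.81 to 2.38 for Ly6c2, 1.02 to 1.21 for Ly6d, -1.18 to -0.85 for Ly6c1, -0.90 to -0.64 for Ly6k, -0.31 to 0.16 for Ly6a and -0.28 to -0.06 for Ly6e. The within-library difference of Ly6c2 to Ly6c1 ranged from 2.66 to 3.55. With 2 deficient libraries, and few fragments behind Ly6d and Ly6k, the spread of these genes is poorly known. A fit without 1 deficient library assumes that the remaining one varies like the sufficient ones.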

Other observations

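Most Ly6 proteins need a GPI anchor, so the genes that make and attach it were read from the same fit. With so few libraries, a lack of calls does not show equal levels. Of 27 tested genes of GPI anchor synthesis and attachment, limma called 0, and 3 had an unadjusted p under 0.05 (2 higher and 1 lower). Pigb, Pign and Pigx were these 3, named after their values were seen, at limma adjusted p = 0.193, 0.278 and 0.264. The summed level of the list was 457 and 438 FPKM in the deficient libraries and 429 to 509 FPKM in the sufficient ones, and its median difference was 0.06, beside -0.01 over all genes.

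Among other GPI-anchored proteins of lymphocytes, 11 were tested. Limma called 2 as lower in deficient cells and 0 as higher, and 4 had an unadjusted p under 0.05, all lower, with a median difference of -0.07. Nt5e (difference -0.64, limma adjusted p = 0.0666) and Cd55 (-0.37, 0.174) were the 2 that did not pass, named after their values were seen. Folr4, which encodes the folate receptor-like protein of Treg cells and the egg known as Juno, was at 229 and 250 FPKM in the deficient and 426 to 619 FPKM in the sufficient libraries (difference -1.05, limma adjusted p = 0.0339). Its call was lost with no filter on low values (0.103), without sufficient replicate 2 (0.0520), without sufficient replicates 1 and 3 (0.0627) and without either deficient library (0.222 and 0.164). Prnp, which encodes the prion protein, was at 4.86 and 5.09 FPKM against 8.53 to 9.85 FPKM (difference -0.74, limma adjusted p = 0.0354). Its call was lost at equal total FPKM (0.106), with no filter (0.0975) and without deficient replicate 1 (0.0784), and without sufficient replicate 2 (0.0749) or 4 (0.0695). It was also lost without sufficient replicates 1 and 3 (0.0904) and without either deficient library (0.227 and 0.180). Thy1, the classic T cell GPI-anchored protein, was at 348 and 445 FPKM against 366 to 496 FPKM (limma adjusted p = 0.866).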
